A study of Mus musculus with 2 samples.

Results

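The expression of genes of the PI3K, AKT and mTOR pathway was compared between Miz-1 knockout and wild-type DN3 thymocytes. The 34 genes were named by symbol and read from every probe set annotated to them. Of the 34 genes, 32 had at least 1 probe set, 85 probe sets in all, among 18193 genes with a named probe set. Rps6kb1 and Rps6ka1 had no probe set under their symbol in the annotation used and are not analysed here. The study hybridised RNA of 1 Miz-1 knockout sample and 1 wild-type sample to 1 array each, to ask how loss of Miz-1 activity changes the expression pattern of these cells. Miz-1 is a POZ zinc finger transcription factor encoded by Zbtb17. The knockout mice carry the delta-POZ allele, which removes the domain used for contacts with partner proteins, and the wild-type mice lack this change. Both were of the C57BL/6 background. Neither the age of the animals, nor what drives the deletion, nor whether animals were pooled is given in the sources used here. DN3 thymocytes are T cell precursors at the stage of the pre-T cell receptor, sorted here for CD25 and against lineage markers and CD44.

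PI3K phosphorylates a membrane lipid after receptors are engaged, and the product recruits PDK1 and AKT, which lipid phosphatases oppose. AKT relieves the brake that the TSC complex puts on the small GTPase RHEB, RHEB activates the kinase mTOR at the lysosome, and amino acids bring mTOR there through the RAG GTPases and Ragulator. In thymocytes this pathway is known to support growth and survival at beta-selection, downstream of the pre-T cell receptor, Notch and the IL-7 receptor. AKT and mTOR act through phosphorylation, which mRNA levels do not show.

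The labels of the arrays were first set against known genes. All 13 DN3 markers with a probe set were above the floor on both arrays, the floor being the median of all probe set values, 394. They were not even between the arrays. Of the 13, 6 were higher in knockout cells past a log2 ratio of 0.57 and none was lower. Among all measured genes, 19.6% were higher and 18.4% lower past this size. The higher markers were led by Dtx1 (5.09-fold), Il2ra, which encodes the sort marker CD25 (4.61-fold), and Cd3g (2.17-fold). The part of this shift in the pathway values was not tested. Of 5 genes listed as absent from the sorted cells, 2 were above the floor on the knockout array and 4 on the wild-type array. Among them, Kit is not a marker named for the sort. Cd4 read 112 in knockout cells and 79.3 in wild-type cells, under the floor on both, and Cd44 read 331 in knockout against 424 in wild-type cells. Cd8a read 541 in knockout against 497 in wild-type cells and Kit 825 in knockout against 749 in wild-type cells, above the floor on both. The other measured Kit probe set read 253 in knockout against 623 in wild-type cells. Cd8b1 read 36.8 in knockout against 679 in wild-type cells. Zbtb17 was 2.23-fold lower in the knockout by its brighter probe set, with 1361 in knockout against 3042 in wild-type cells. The dimmer probe set read 610 in knockout against 47.6 in wild-type cells, the latter under the floor, at least 1.55-fold higher. The position of the Zbtb17 probes relative to the deleted part is unknown here, and the Zbtb17 level therefore does not check the label. Xist, the transcript of the inactive X chromosome, read 55300.0 in knockout cells and 423 in wild-type cells by its brightest probe set. The animals thus differed in sex, and genotype and sex cannot be told apart.

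As each genotype had 1 array, no difference could be tested, and each is described by its size. A gene was read by its brightest probe set and called measured if the mean of both arrays exceeded the floor, which 27 of the 32 genes did. Values under the floor were raised to it, so that a fold against such a value is a lower bound. The only repeated measurement is the spread of log2 ratios between probe sets of a gene, an SD of 0.57 over 4514 genes, and 0.47 over the 15 pathway genes with at least 2 measured probe sets. It covers no difference between animals.

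As a group, the pathway genes were centred near 0. Deptor and Pik3cd passed 2-fold on the higher side in knockout cells, and none was 2-fold lower. These 2 of 27 genes make 7.41%, beside 7.23% of all 10770 measured genes, and for lower genes 0 of 27 stand beside 5.65%. The median log2 ratio was -0.06, with quartiles of -0.36 and 0.30. Over all measured genes it was 0.00, with quartiles of -0.44 and 0.45. Past the probe set spread of 0.57, 5 genes were higher (18.5%, beside 19.6% of all genes) and 4 were lower (14.8%, beside 18.4%). The shares past either size were near the background or under it. Of all calls at 2-fold in the whole table, 56.2% were higher in the knockout, and 37.9% after centring both arrays on their median.

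**Figure D1:**
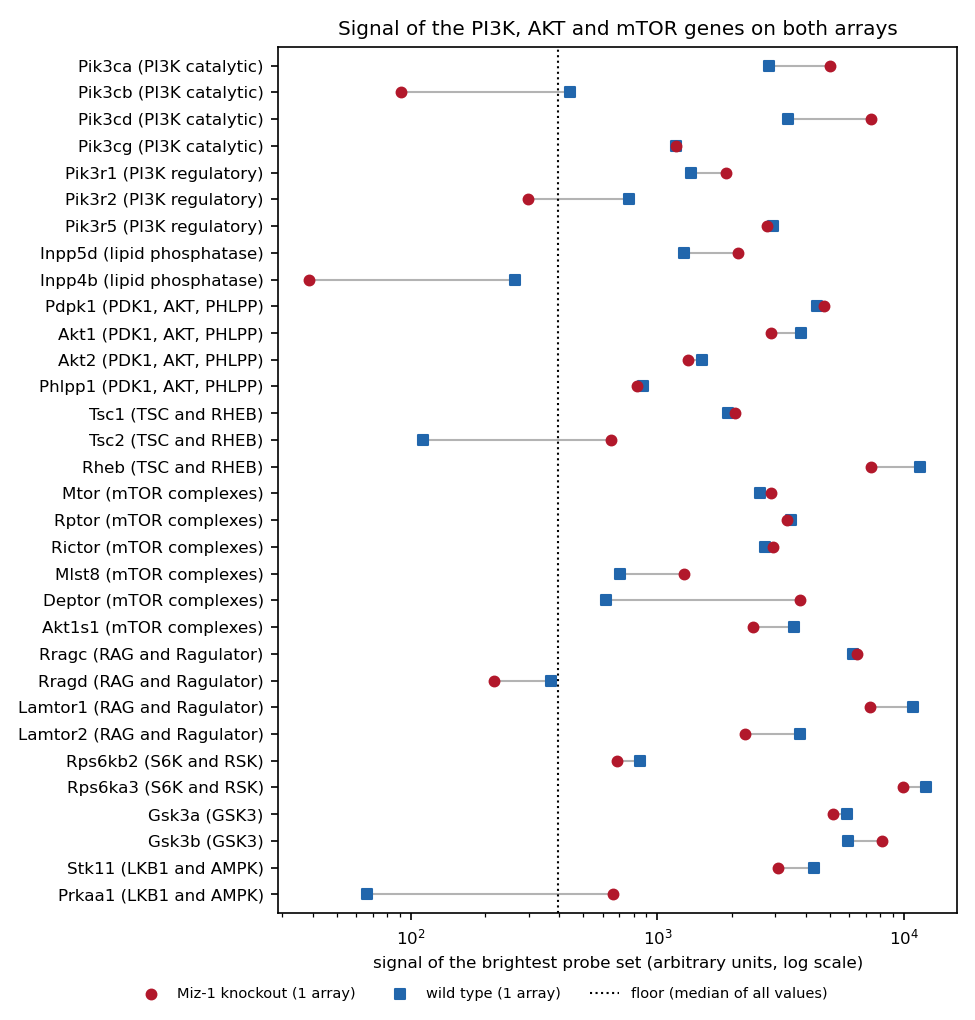
Signal of the brightest probe set of each of the 32 genes (x axis, arbitrary units, log scale) on the Miz-1 knockout array (red circles) and the wild-type array (blue squares), with the floor of 394 as a dotted line. The widest gap among genes above the floor on both arrays is that of Deptor, with 3780 in knockout cells and 620 in wild-type cells.

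Deptor stood out among the pathway genes. It encodes a protein that binds mTOR and inhibits both of its complexes. Its brightest probe set had 3780 in knockout cells and 620 in wild-type cells, 6.10-fold higher and the 15th highest log2 ratio of the 10770 measured genes. The next probe set read 2607 in knockout against 739 in wild-type cells, 3.53-fold higher. The third probe set read 2192 in knockout against 92.5 in wild-type cells, the wild-type value being under the floor, at least 5.56-fold higher. The fourth measured probe set, one of shared sequence, read 595 in knockout against 261 in wild-type cells, at least 1.51-fold higher. All 4 measured Deptor probe sets were thus higher in the knockout, with log2 ratios from 0.59 to 2.61. The remaining pair had means under the floor, with 321 in knockout against 397 in wild-type cells and 177 in knockout against 415 in wild-type cells. Myeloid markers moved in the same direction. Their summed signal was 11261 in knockout cells and 3837 in wild-type cells over 13 genes. Of the 4 measured ones, 3 (Lyz1, Lyz2 and Csf1r) were at least 2-fold higher, beside 7.23% of all genes. A further 7 (Mpo, Elane, Itgam, S100a8, S100a9, Fcgr3 and Fcer1g) were under the floor on both arrays. Other marker lists also had median log2 ratios above 0 over their measured genes. These were NK and innate lymphoid cells (0.86), B cells (0.54), thymic stroma (0.53), gamma-delta T cells (0.44) and erythroid cells (0.12, 1 measured gene). B cell markers summed to 15941 in knockout against 31673 in wild-type cells. Of their 5 measured genes, 2 (Ighm and Cd22) were at least 2-fold lower, beside 5.65% of all genes, and none was 2-fold higher. NK and innate lymphoid markers summed to 22570.5 in knockout against 23896 in wild-type cells. Of 6 measured, 2 were at least 2-fold higher, beside 7.23%, and none was 2-fold lower. The other sums of these lists were higher in the knockout. Mature T cells (-0.47) had a median under 0, and the only measured dendritic cell gene, Cd74, was at -0.11. The part of any of these markers in the Deptor result was not tested. In RNA of sorted cells, more cells of a type and more RNA per cell cannot be told apart.

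Of the other mTOR complex genes, Mtor, Rptor and Rictor differed little by their brightest probe sets, Mlst8 was higher and Akt1s1 was lower. Mtor, the kinase itself, read 2894 in knockout cells and 2610 in wild-type cells, a log2 ratio of 0.15. Rptor, which defines mTOR complex 1, read 3347 in knockout against 3490 in wild-type cells (-0.06), and Rictor, which defines complex 2, read 2939 in knockout against 2738 in wild-type cells (0.10). These 3 ratios lay well inside the probe set spread. The dimmer measured Rictor probe sets gave 0.74 and, as a lower bound, 1.02. Mlst8, a subunit common to both complexes, read 1284 in knockout cells and 704 in wild-type cells, 1.83-fold higher by its only measured probe set. Its other probe set, with a mean under the floor, read 570 in knockout against 147 in wild-type cells. Akt1s1, an AKT substrate that inhibits complex 1, was on the opposite side, with 2451 in knockout cells and 3586 in wild-type cells, 1.46-fold lower. Both of its measured probe sets were lower, with log2 ratios of -0.55 and -0.41. The known protein inhibitors of mTOR in the set, Deptor and Akt1s1, thus lay on opposite sides of 0.

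**Figure D2:**
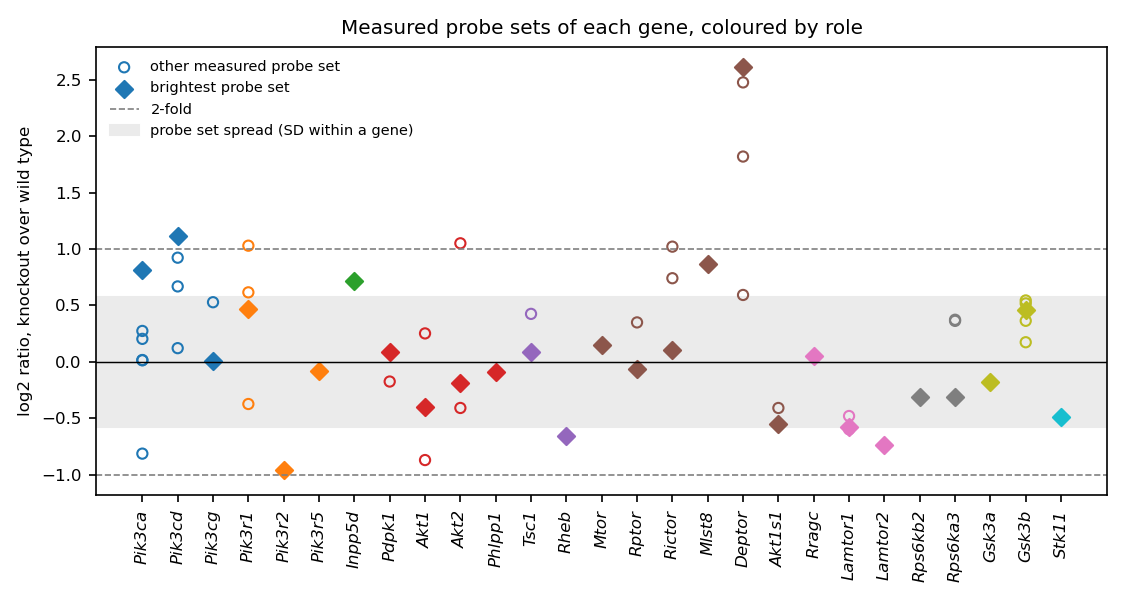
Log2 ratio of knockout over wild type (y axis) for every measured probe set of the 27 measured genes (x axis), with filled diamonds for the brightest probe set and open circles for the others, coloured by role. The grey band is the probe set spread of 0.57 on either side of 0 and the dashed lines mark 2-fold. All 4 Deptor probe sets lie above 0, whereas those of Pik3ca run from -0.81 to 0.81.

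The measured catalytic subunits of PI3K were even or higher in the knockout. Pik3cd encodes the delta isoform, which leukocytes express most. By its brightest probe set it had 7344 in knockout cells and 3386 in wild-type cells, 2.17-fold higher. Its other measured probe sets read 3435 in knockout against 3156 in wild-type cells, 1655 in knockout against 1041 in wild-type cells and 1101 in knockout against 580 in wild-type cells. All 4 were higher in the knockout, though with log2 ratios from 0.12 to 1.12, and their mean of 0.71 was under 2-fold. Pik3ca, the widely expressed alpha isoform, read 5000.1 in knockout against 2846 in wild-type cells by its brightest probe set, 1.76-fold higher. The next brightest gave 1488 in knockout cells and 2612 in wild-type cells, 1.76-fold lower, and the mean over its 6 probe sets was 0.09. Of the 6, 5 were higher in the knockout and 1 was lower. Apart from the brightest, the higher ones lay between 0.01 and 0.27. Pik3cg, the gamma isoform that G protein-coupled receptors engage, read 1194 in knockout against 1188 in wild-type cells, and 1252 in knockout against 868 in wild-type cells by its other probe set. Pik3cb, the beta isoform, had 90.7 in knockout cells and 441 in wild-type cells, with a mean under the floor, at least 1.12-fold lower.

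Among regulatory subunits, Pik3r2 had the lowest ratio of the measured pathway genes. It encodes an adaptor that holds and stabilises the catalytic subunit. Its only probe set read 299 in the knockout, under the floor, and 767 in the wild type, at least 1.95-fold lower. Without a floor its log2 ratio was -1.36. Pik3r1, the main such adaptor, read 1891 in knockout against 1366 in wild-type cells, a log2 ratio of 0.47, and its 4 measured probe sets ran from -0.37 to 1.03. Pik3r5, which regulates the gamma isoform, read 2787 in knockout against 2954 in wild-type cells (-0.08).

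The lipid phosphatases were read thinly. Inpp5d, which encodes SHIP1, the phosphatase of blood cells that removes a phosphate from the PI3K product, read 2115 in knockout cells and 1286 in wild-type cells, 1.64-fold higher by its measured probe set. Its second probe set had 424 in knockout against 267 in wild-type cells. Both Inpp4b probe sets were under the floor on both arrays, with 38.6 and 133 in knockout cells and 263 and 113 in wild-type cells, and give no fold.

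AKT and the kinases and phosphatase that act on it were close to even. Pdpk1, which encodes PDK1, the kinase that phosphorylates the activation loop of AKT, read 4726 in knockout cells and 4452 in wild-type cells (log2 ratio 0.09). Akt1 read 2899 in knockout against 3821 in wild-type cells, 1.32-fold lower, with its 3 measured probe sets from -0.87 to 0.25. Akt2 read 1333 in knockout against 1516 in wild-type cells (-0.19), and its dimmest measured probe set went the other way, at least 2.07-fold higher. Phlpp1, a phosphatase that removes an activating phosphate of AKT, read 824 in knockout against 876 in wild-type cells (-0.09). No gene of this step passed the probe set spread by its brightest probe set.

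Rheb and the Ragulator genes Lamtor1 and Lamtor2 were lower in the knockout. Rheb, the direct activator of mTOR complex 1, read 7364 in knockout cells and 11620 in wild-type cells by its only probe set, 1.58-fold lower. Lamtor1, which anchors Ragulator to the lysosome, read 7257 in knockout against 10848 in wild-type cells, 1.49-fold lower, and its 3 probe sets agreed closely, with log2 ratios from -0.60 to -0.48. Lamtor2, another Ragulator subunit, read 2274 in knockout against 3782 in wild-type cells, 1.66-fold lower, and its dim second probe set 139 in knockout against 473 in wild-type cells. The Ragulator genes outside the set did not share a direction. Lamtor3 was even (0.01), Lamtor4 was 1.56-fold higher, with 2466 in knockout against 1583 in wild-type cells, and the 2 probe sets of Lamtor5 gave -1.02 and 0.02. Rragc, a RAG GTPase that Ragulator binds, was even, with 6457 in knockout against 6218 in wild-type cells. Its close relative Rragd was under the floor with all 3 probe sets on both arrays. The ratios of Rheb, Lamtor1 and Lamtor2 kept their sign under the 8 other processing settings. Bright genes as a whole were lower in the knockout. Among the 2693 measured genes with the highest mean signals, of at least 3239, the median log2 ratio was -0.18, and that of the 12 pathway genes among them was -0.12. After loess normalization, which removes such a trend, Rheb was at -0.45 and Lamtor1 at -0.38, both inside the probe set spread, and Lamtor2 at -0.73.

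**Figure D3:**
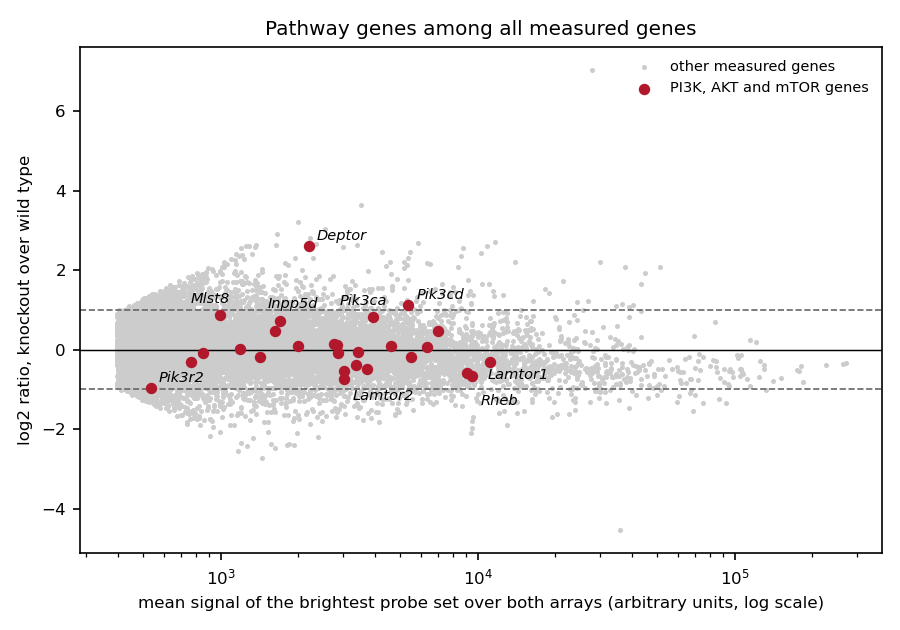
Log2 ratio of knockout over wild type (y axis) against mean signal of the brightest probe set (x axis, arbitrary units, log scale) for the 10770 measured genes (grey) and the 27 measured pathway genes (red), with dashed lines at 2-fold. The 9 pathway genes past the probe set spread are named, and Deptor alone lies far above the 2-fold line.

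Of the brake on RHEB, Tsc1 read 2064 in knockout cells and 1937 in wild-type cells (log2 ratio 0.09). Tsc2, the GTPase-activating subunit, read 647 in knockout against 112 in wild-type cells by its only probe set, with a mean under the floor, and was at least 1.64-fold higher. LKB1 and AMPK restrain mTOR when energy is low. Stk11, which encodes LKB1, read 3076 in knockout against 4318 in wild-type cells, a log2 ratio of -0.49. Prkaa1, the AMPK catalytic subunit, read 659 in knockout against 66.6 in wild-type cells, at least 1.67-fold higher with a mean under the floor. Tsc2 and Prkaa1 were above the floor on the knockout array alone, and each rests on 1 probe set.

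Kinases downstream of AKT and mTOR differed by less than 1.5-fold by their brightest probe sets. Gsk3b, a kinase that AKT inhibits, read 8137 in knockout cells and 5914 in wild-type cells, 1.38-fold higher, and all 5 measured probe sets were higher, from 0.17 to 0.54. Its relative Gsk3a read 5173 in knockout against 5857 in wild-type cells (-0.18). Rps6kb2, an S6 kinase, read 684 in knockout against 850 in wild-type cells (-0.31). Rps6ka3, an RSK kinase of the ERK branch and a gene of the X chromosome, read 9943 in knockout against 12311 in wild-type cells (-0.31), while its dimmer probe sets gave 0.37 and 0.36. Over the 15 genes with at least 2 measured probe sets, 8 had all of them on the same side of 0 and 7 did not.

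Because Miz-1 binds DNA and partners with MYC, promoters of the pathway genes were searched for letters of the motifs reported for each. RefSeq promoters of the GRCm38.p6 build, 250 bases before to 50 after each start, were matched for 31 of the 34 genes, and Deptor, Rps6kb2 and Rps6ka3 are named only. ATCGGT, letters of a reported Miz-1 motif, was found on either strand in Pdpk1, or 3.23% of the 31, beside 2.68% of 27025 genes in the table. ATCGAT, also reported for Miz-1, was found in Mlst8, beside 1.02% of all genes. The E-box CACGTG, which MYC with MAX binds, was found in Rheb, Rragc and Lamtor1, 9.68% beside 8.09% of all genes. No promoter of these genes held more than 1 of the 3 motifs. The 5 stretches are shown, 60 bases each, since they belong to genes that were lower (Rheb, Lamtor1), higher (Mlst8) and even (Pdpk1, Rragc), 5′ to 3′ with the motif in capitals. They lie at chr5:24842425-24842484 (minus strand, Rheb), chr7:101905742-101905801 (plus strand, Lamtor1), chr4:123917294-123917353 (plus strand, Rragc), chr17:24151108-24151167 (minus strand, Pdpk1) and chr17:24479072-24479131 (minus strand, Mlst8).
Rheb: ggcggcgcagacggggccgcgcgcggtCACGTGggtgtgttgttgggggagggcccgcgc
Lamtor1: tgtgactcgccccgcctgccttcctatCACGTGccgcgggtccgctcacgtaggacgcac
Rragc: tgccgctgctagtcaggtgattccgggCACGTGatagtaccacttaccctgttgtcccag
Pdpk1: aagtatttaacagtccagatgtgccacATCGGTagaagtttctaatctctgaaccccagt
Mlst8: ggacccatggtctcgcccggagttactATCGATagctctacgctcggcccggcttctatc
The E-box was thus found in front of the lower genes Rheb and Lamtor1 and of the even gene Rragc. A match is a description of the letters and does not show that a factor binds there.

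A wider list of the pathway, 101 further components of which 77 were measured, was also centred near 0. Of these, 6 passed 2-fold on the higher side (7.79%, beside 7.23% of all measured genes) and 7 on the lower side (9.09%, beside 5.65%), and their median log2 ratio was -0.08. Pik3ip1, which encodes a transmembrane inhibitor of PI3K, was 2.58-fold higher, with 13878 in knockout cells and 5376 in wild-type cells, and its second probe set was also higher (1.08). Ddit4, a stress-induced inhibitor of mTOR complex 1, read 3946 in knockout against 1680 in wild-type cells, 2.35-fold higher by 1 probe set. Inpp4a, a lipid phosphatase related to Inpp4b, read 1755 in knockout against 664 in wild-type cells, 2.64-fold higher. The AKT-related kinase Sgk1 was at least 2.22-fold higher, with 874 in knockout against 250 in wild-type cells. Of the other measured genes listed with Ddit4, Trib2 had a log2 ratio of -0.60. Grb10 had one of at least 0.47, its wild-type value being under the floor. Among the sestrins, which inhibit amino acid signalling, Sesn1 read 4506 in knockout against 4971 in wild-type cells (-0.14) by its brightest probe set. Its other 3 ran from 0.03 to 0.47. Sesn2 was at 0.79. Sesn3 was at 0.31 by its brightest probe set and at -1.23 by its other measured probe set. Trib2, Grb10, Sesn2 and Sesn3, like Lamtor3 and Lamtor4, were named after their values were seen.

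Receptors and adaptors upstream of PI3K had 8 of 12 measured genes above 0, beside 50% of all measured genes. Their median log2 ratio was 0.23. Of the inputs at this stage, chosen after their values were seen, Notch1 was at 0.98 and 1.23 and Il7r, the IL-7 receptor, at 0.88 and 1.44 by their 2 probe sets each. Ptcra, the pre-T cell receptor alpha chain, was at 0.62. Past 2-fold on the lower side in this list were Cd28 and Igf1r (16.7%, beside 5.65% of all genes). None of the list was 2-fold higher. Cd28, a costimulatory receptor that engages PI3K, read 1499 in knockout cells and 4616 in wild-type cells, and both of its probe sets were at least 2-fold lower. Igf1r, a growth factor receptor, was 2.32-fold lower by its brightest probe set and between -0.58 and -0.15 by its other 3 measured ones. In the other component lists, Lamtor5 read 3531 in knockout against 7174 in wild-type cells, 2.03-fold lower, but 2367 in knockout against 2327 in wild-type cells by its second probe set, and it was under 2-fold after quantile (-0.95) and loess (-0.93) normalization. Tbc1d7, the third subunit of the TSC complex, was at least 2.20-fold lower, with 140 in knockout against 866 in wild-type cells. Depdc5 and Sec13, parts of the GATOR complexes that relay amino acid levels, were 2.28-fold and 2.26-fold lower, and Depdc5 had 0.36 by its other measured probe set. Eif4ebp1, the translation repressor that mTOR inactivates, read 855 in knockout against 2148 in wild-type cells by its brightest probe set, 2.51-fold lower, while its 3 measured probe sets ran from -1.33 to 0.93. Rps6, the ribosomal substrate of S6 kinase, had a log2 ratio of -0.37. Mapkap1, a subunit of mTOR complex 2, was at -0.19 by its brightest probe set and at -0.98 by its other one. Telo2 and Tti2, which help mTOR fold and assemble, were 2.52-fold and 2.62-fold higher by their brightest probe sets, but another Telo2 probe set had -1.30 and another Tti2 probe set -0.12.

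Genes known to respond to the pathway were read as lists, here and in the next paragraph. All were chosen with earlier results of these data known, so their shares only describe these lists. FOXO factors are excluded from the nucleus by AKT. Of 10 measured FOXO factors and targets, 4 were at least 2-fold higher (40%, beside 7.23% of all genes) and Ccng2 was 2.02-fold lower, or under 2-fold after quantile (-0.92) and loess (-0.88) normalization. The list's median log2 ratio was 0.90. Foxo1 itself read 1823 in knockout cells and 929 in wild-type cells (0.97), and its 3 measured probe sets were all higher, up to 2.11. Klf2, a quiescence factor of T cells, was at least 2.67-fold higher, with 1051 in knockout against 162 in wild-type cells. Rbl2, a pocket protein that holds back the cell cycle, was 2.46-fold higher with both probe sets above 2-fold. Cat, which encodes catalase, was 2.51-fold higher by its brightest probe set and -0.56 by the other. Sod2 read 5806 in knockout against 11129 in wild-type cells (-0.94), with 3 of its 4 measured probe sets lower. Cdkn1b was near even (0.11). Sod2 and Cdkn1b were named after their values were seen. Klf2 also stands in the list of mature T cell markers, whose 8 genes summed to 9621 in knockout cells and 6715 in wild-type cells, with 2 of 5 measured ones at least 2-fold higher and a median log2 ratio of -0.47. Their part in the FOXO values was not tested.

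mTOR complex 1 is known to raise transcripts of lipid synthesis through SREBP, of glycolysis through HIF and of serine and one-carbon metabolism through ATF4. Of 30 measured genes of these branches, 7 were at least 2-fold lower in the knockout (23.3%, beside 5.65% of all genes) and none was 2-fold higher. Their median log2 ratio was -0.52, and -0.39 after loess normalization. In the SREBP branch the median of 9 genes was -0.66, and Fasn, the fatty acid synthase, read 3350 in knockout cells and 7202 in wild-type cells, 2.15-fold lower. In the HIF branch the median of 10 genes was -0.25, with Hk2 2.64-fold, Pfkp 2.26-fold and Ldha 2.17-fold lower. Ldha was under 2-fold after quantile (-0.79) and loess (-0.77) normalization, and Pfkp (-0.79) by the mean of its probe sets. In the ATF4 branch the median of 11 genes was -0.53, with Shmt2 2.86-fold, Psat1 2.17-fold and Slc7a5 at least 2.06-fold lower. Shmt2 was uneven between its 4 probe sets, a pair of which lay above 0, at 0.28 and 0.15, and their mean was -0.53, under 2-fold. Many of these genes are also known to respond to MYC.

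**Figure D4:**
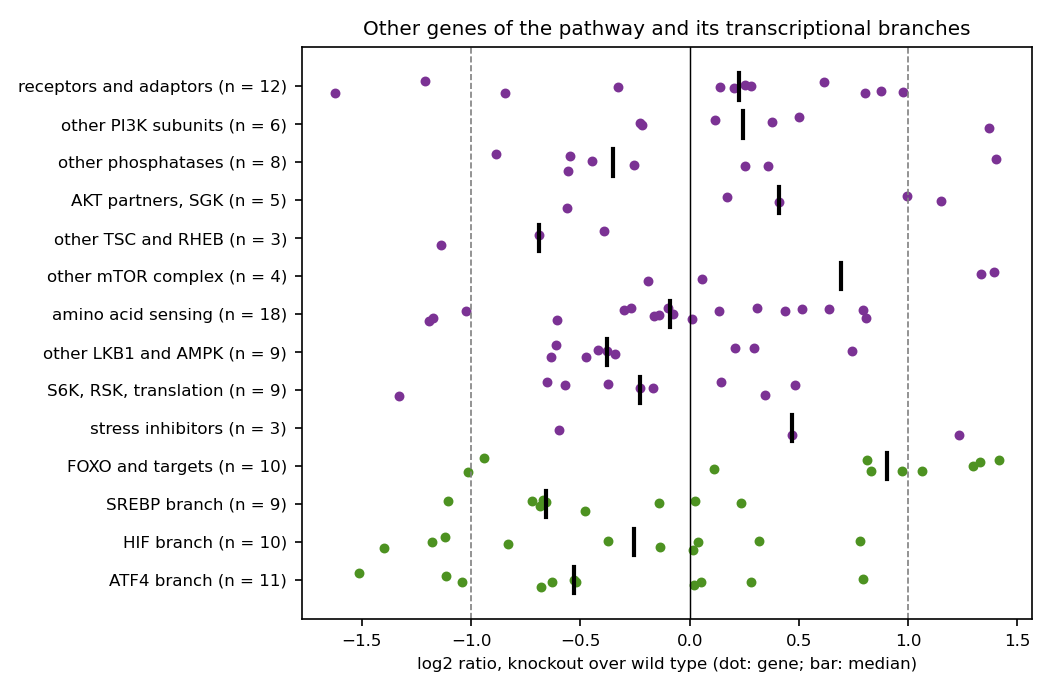
Log2 ratio of knockout over wild type (x axis) for the measured genes of each further list (y axis, number of genes in brackets), with components in purple, responding genes in green and the median of each list as a black bar. The FOXO list has a median of 0.90 and the SREBP, HIF and ATF4 branches have medians of -0.66, -0.25 and -0.53.

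**Figure D5:**
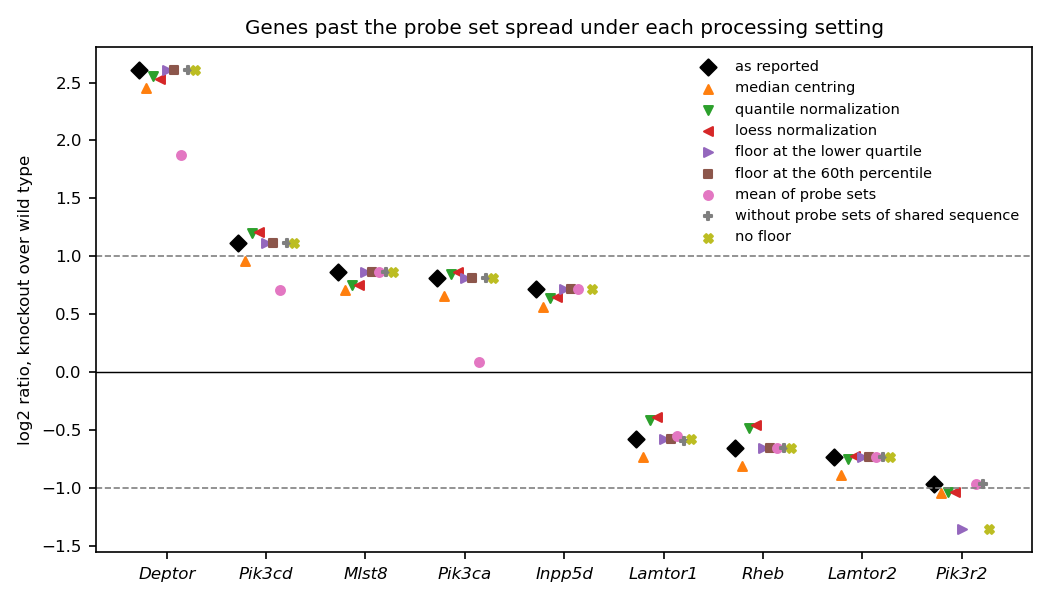
Log2 ratio of knockout over wild type (y axis) of the 9 pathway genes past the probe set spread (x axis), as reported (black diamonds) and under 8 other processing settings (coloured marks). Deptor stays above 2-fold in each, between 1.87 and 2.61, whereas Pik3ca is at 0.09 by the mean of its probe sets.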

How the data were processed

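Total RNA was amplified and biotin-labelled by in vitro transcription, per the labels' protocols. The deposited table gives 1 linear signal intensity for each probe set and array. The submitters' processing notes name GCOS 1.4, whose settings are unknown here. Both arrays have a mean of 1000 after trimming 2% at each end, so the authors had scaled them before deposit. Of 45101 probe sets, 64 controls were left out. The number of arrays limits the precision, and detection calls were not used here.

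Names of probe sets come from GEO's platform annotation, with symbols updated by identifier from the RefSeq table of GRCm38.p6: 34958 have 1 symbol, 932 several and 9211 are not listed. From the deposited values, log2 ratios of knockout over wild type were computed in Python 3.11.15 with values under the median of all non-control values (394) raised to it. Genes were read by the probe set with the highest mean. The script was tested on simulated data. Genes named are all 34 members, further genes past 2-fold (up to 3 in each direction per list), direct partners of the members, and array checks. Members and lists were chosen with earlier results of these data known.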

Additional observations from a re-analysis of the deposited data

How the results depend on the processing

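Values were recomputed with median centring, with quantile or loess normalization, a floor at the lower quartile (119), at the 60th percentile (550.1) or none, the mean of measured probe sets, and leaving out probe sets of shared sequence. Of the 27 measured genes, 18 kept the sign of their log2 ratio in all alternatives that gave a value and 9, all within 0.31 of 0 as reported, turned in at least 1. The number of pathway genes at least 2-fold higher was 2 as reported, 1 with median centring (Deptor) and with the mean of probe sets (Deptor), and 4 with the lower floor. The number at least 2-fold lower was 0 as reported, 1 (Pik3r2) with median centring, quantile, loess and no floor, and 3 with the lower floor, which lets in dimmer genes. Over all measured genes, 779 higher became 2682 with the lower floor and 504 with the higher one, and 608 lower became 2233 with the lower floor and 927 with median centring, which shifts the median of all genes to -0.16. The median of the pathway genes ran from -0.22 (median centring) to 0.09 (mean of probe sets), and that of all 116 measured further genes, responding genes included, from -0.30 to 0.02. Apart from the floors, the cause of these shifts was not tested. No paired analysis was possible because there is 1 array per genotype. Leaving out an array leaves no comparison.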

Other observations

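In the 15 pathway genes with several measured probe sets, the probe sets other than the brightest had the higher mean log2 ratio in 9 (60%), and over all 4514 such genes in 54.1%. The median log2 ratio of the brightest probe sets was 0.09 in the pathway genes and -0.02 in all genes, and that of the other probe sets was 0.37 and 0.05.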
